A study of Mus musculus with 4 samples.

Results

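The annexins, a family of calcium-dependent membrane-binding proteins, were examined in the skin of loricrin knockout and wildtype mice at birth. Members were chosen by gene symbol, as the probe sets that the platform annotation assigns to exactly 1 of 9 annexin genes (Anxa1 to Anxa8 and Anxa11). Of these 9 genes, 8 had at least 1 such probe set, among 13675 genes named on the arrays. They had 12 probe sets in all, 11 on the first of 2 array types and 1, for Anxa7, on the second. The only probe set that lists Anxa11 also names 2 other genes, so no value is given for it. Both groups were of strain FVB/N, and their whole skin was taken at postnatal day 0, and the labels name no treatment. Each group had 2 arrays, 1 on each array type, and the labels do not say how loricrin was deleted, or whether animals were pooled or the second array held RNA of another animal. A ratio within an array type therefore has no replicate error.

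Annexins share a core of repeated domains that bind acidic phospholipids when calcium is present, and they take part in membrane repair, vesicle traffic and the organisation of the cortical cytoskeleton. Several pair with small S100 proteins, as annexin A2 does with S100A10. In the epidermis annexin A1 is also a substrate of transglutaminases and has been found among the proteins of the cornified envelope, the cross-linked shell of which loricrin is the main component.

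Loricrin (Lor) read 2013 on the knockout and 41224 on the wildtype array of the first type, 20.5-fold lower in the knockout, and no second-type probe set is named for it. The X-inactivation RNA Xist read 857 and 24.7 on the first type, and the Y-linked Kdm5d read 27.8 and 470 on one probe set of the second, so the sexes differed along with the genotypes and the 2 cannot be told apart. Signals are MAS5 values on a linear scale with arbitrary units, and they were scaled to an equal trimmed mean. Values below a floor, 77.6 for the first type and 133 for the second, were set to it. Of 12422 first-type probe sets 7031 passed the floor in both arrays, as did 6763 of 12411 second-type probe sets. The level of one probe set cannot be set against that of another, so each annexin was compared only with itself.

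No annexin probe set differed by 2-fold between knockout and wildtype skin. The 3 probe sets of Anxa1 read 63.1 to 67.8% of their wildtype signals. Anxa6 read 77.8%, Anxa2 78.7% and Anxa4 88% of wildtype. Anxa3, Anxa5 and Anxa8 read within 1.07-fold of it. Anxa7 gave opposite directions on the 2 array types.

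On the first type 0 of 11 annexin probe sets were at least 2-fold higher in the knockout, where 0.869% of all probe sets were, and 0 were at least 2-fold lower, where 1.22% were. At 1.5-fold, 3 of 11 were lower (4.69% of all probe sets) and 0 higher (4.11%). These 3 were 2 Anxa1 probe sets and 1 of Anxa7. The shares of all probe sets include those below the floor in both arrays, which cannot pass a fold rule. Of the 12422 on the first type, 7904 lay above it in 1 or both arrays. On the second type the single Anxa7 probe set was not 2-fold higher (1.48% of all) or lower (1.84%), but it was at least 1.5-fold higher (6.08%, with 6.98% at least 1.5-fold lower). Of the 11 probe sets on the first type, 10 lay above the floor in both arrays. Their median log2 ratio of knockout over wildtype was -0.35, beside 0.007 over all probe sets with a signal above the floor in 1 or both arrays. Anxa1 has 3 of these 10 probe sets. With the mean over each gene's probe sets the annexin median was -0.26. With only probe sets without a suffix for shared sequence, which leaves out Anxa1, it was -0.18. Counted by gene, 7 of 8 lay below the median of all probe sets. The ratio was below 0 in 9 of the 10, beside 48.1% of all probe sets above the floor in both arrays. Under scaling on the bacterial spike-in controls it was below 0 in only 1 of the 10. Spike-in scaling moved the median of all probe sets to 0.66, and 9 of the 10 were below that median too. Nothing can be called particular to the family from these counts.

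**Figure D1:**
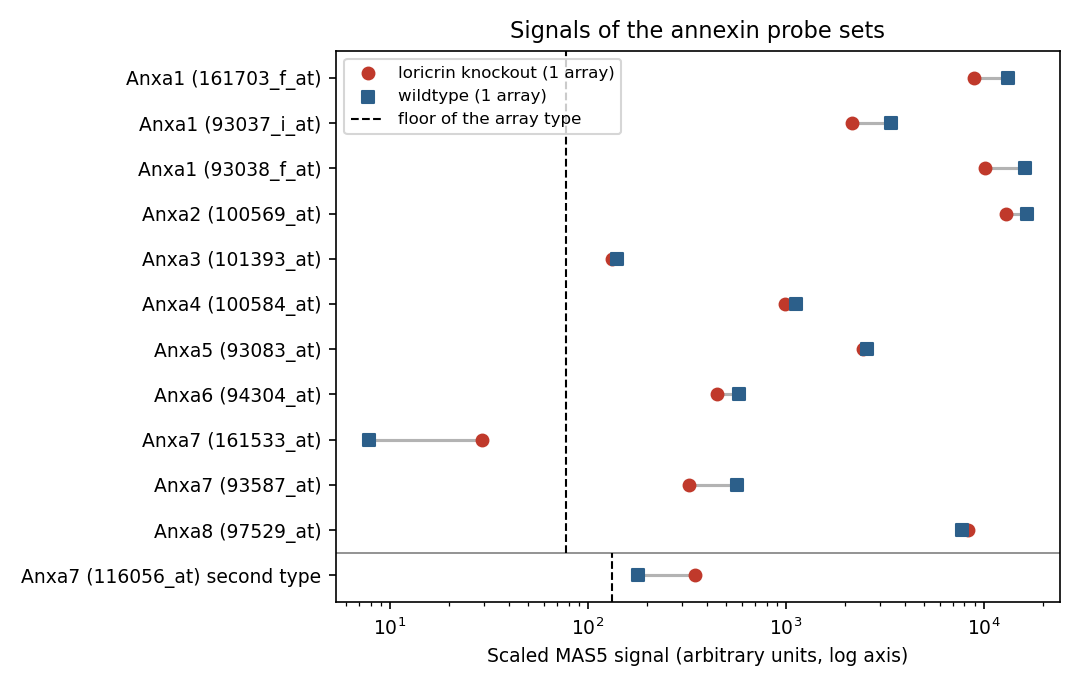
MAS5 signal (log axis, arbitrary units) of each annexin probe set on the knockout (circles) and wildtype (squares) array of its type, with the floor of each type as a dashed line. Every point is 1 array. Of the pairs above the floor on the first type, the knockout point lies to the left in 9 and to the right for Anxa8 (under spike-in scaling to the left only for Anxa7); on the second type the Anxa7 knockout point, 348, lies to the right of the wildtype point, 179.

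Anxa1, also known as lipocortin, acts outside cells through formyl peptide receptors to limit inflammation and is a target of the EGF receptor kinase. Its probe set 93038_f_at read 10202 (knockout) and 16166 (wildtype), a log2 ratio of -0.66 or 1.58-fold lower. Probe set 93037_i_at read 2174 and 3416, a ratio of -0.65. Probe set 161703_f_at read 8968 and 13231, a ratio of -0.56. All 3 were lower on the knockout array, and 4.37 to 6.88% of the probe sets above the floor in both arrays, over all signal levels, had a lower ratio. For 93038_f_at and 161703_f_at, first-type probe sets of like signal (10000 or more) had a median of -0.44 and a lower quartile of -0.54. The mean was -0.63 ± 0.056 (SD between probe sets, n = 3), which is a spread between probe sets on the same 2 arrays and not between animals. Probe sets 93038_f_at and 93037_i_at were designed from 1 sequence record. The f suffix of 93038_f_at and 161703_f_at marks shared sequence, and the i suffix of 93037_i_at was counted with it. The 3 are therefore not independent, and they may not read Anxa1 alone. Anxa1 has no probe set without such a suffix. For scale, the probe sets of one gene differed by a median of 0.33 in log2 ratio over 838 genes with several, and in 44.3% of these genes they had opposite signs. Under spike-in scaling the 3 Anxa1 ratios were 0.023, 0.035 and 0.13, still under the median of 0.66 for all probe sets.

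Anxa2 forms a tetramer with S100A10 that docks tissue plasminogen activator and plasminogen at the cell surface and binds the scaffold protein AHNAK. It read 13013 (knockout) and 16534 (wildtype), a log2 ratio of -0.35 or 1.27-fold lower, with 16.7% of probe sets above the floor lower still. Anxa8, an annexin found in keratinocytes and other epithelial cells, read 8304 in knockout and 7804 in wildtype. Its ratio of 0.09 was the only one above 0 on the first type, and it stayed above 0, between 0.089 and 0.78, under each scaling and floor tried. Anxa1 and Anxa2 thus stood below and Anxa8 above their wildtype signals, except that spike-in scaling put Anxa1 and Anxa2 above 0.

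The promoters of these 3 genes are shown because these genes read far above the floor and their ratios differ in sign under the scaling used here. The Anxa2 and Anxa8 ratios, -0.35 and 0.09, are smaller than the pooled SD of 0.41 between probe sets of a gene. Under spike-in scaling all 3 genes were above 0, and a link of motifs to ratios was not tested. The windows run from 250 bases before to 50 after the RefSeq start (build GRCm38.p6), on the gene's own strand, and capitals mark every match, on either strand, to one of 4 motifs. The first motif is TATAAA, known from core promoters. The second is GGGCGG, known from sites of Sp1. The third is TGANTCA, known from sites of AP-1. The last is CCAAT, known from sites of NF-Y. Anxa1 lies at chr19:20390622-20390921 on the minus strand, Anxa2 at chr9:69453433-69453732 on the plus strand and Anxa8 at chr14:34085729-34086028 on the plus strand.
Anxa1: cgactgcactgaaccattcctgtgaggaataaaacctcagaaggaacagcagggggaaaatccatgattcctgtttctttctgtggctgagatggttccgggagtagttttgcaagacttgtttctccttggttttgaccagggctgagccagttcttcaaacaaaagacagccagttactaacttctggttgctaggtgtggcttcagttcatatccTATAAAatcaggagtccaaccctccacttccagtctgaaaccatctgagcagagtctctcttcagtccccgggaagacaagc
Anxa2: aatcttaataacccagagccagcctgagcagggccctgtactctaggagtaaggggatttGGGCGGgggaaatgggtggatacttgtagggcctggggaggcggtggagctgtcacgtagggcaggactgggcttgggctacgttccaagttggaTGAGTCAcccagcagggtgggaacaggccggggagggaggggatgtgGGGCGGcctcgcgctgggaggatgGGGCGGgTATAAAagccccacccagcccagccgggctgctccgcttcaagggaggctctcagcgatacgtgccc
Anxa8: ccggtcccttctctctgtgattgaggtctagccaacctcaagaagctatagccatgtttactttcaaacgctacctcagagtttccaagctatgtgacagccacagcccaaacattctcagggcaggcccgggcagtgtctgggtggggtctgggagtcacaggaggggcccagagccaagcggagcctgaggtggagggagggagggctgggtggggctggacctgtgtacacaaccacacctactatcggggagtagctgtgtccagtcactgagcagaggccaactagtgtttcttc

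Anxa1 held TATAAA with its first base 32 bases before the start and no other of the 4 motifs. Anxa2 held TATAAA 17 bases before the start, GGGCGG at 3 places and TGANTCA 95 bases before the start. These matches did not overlap one another. Anxa8 held none of the 4. Of 32851 RefSeq promoter windows of this length, 13.6% held TATAAA, 35.7% GGGCGG, 7.81% TGANTCA and 37.4% CCAAT. Windows were matched for 7 of the 9 annexin genes, and only the Anxa1 and Anxa2 windows among them held TATAAA. Such letters describe the window and show no binding.

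Anxa6, whose core is duplicated and which is tied to cholesterol traffic and Ras inactivation, read 452 (knockout) and 580 (wildtype), a log2 ratio of -0.36. Anxa4, common in epithelial cells, read 987 and 1121, a ratio of -0.18. Anxa5, the annexin used to detect phosphatidylserine on dying cells, read 2457 and 2575, a ratio of -0.068. Anxa3, known from neutrophils and endothelium, read 132 and 141, a ratio of -0.098, with both signals less than 2-fold above the floor. Each of these 4 genes had 1 probe set, so neither a second probe set nor a second array type repeats the value. All 4 ratios lay well inside the range from -0.79 to 0.75 that held the central 95% of probe sets above the floor. Under spike-in scaling they were positive, from 0.32 for Anxa6 to 0.62 for Anxa5, and again below the median of all probe sets.

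**Figure D2:**
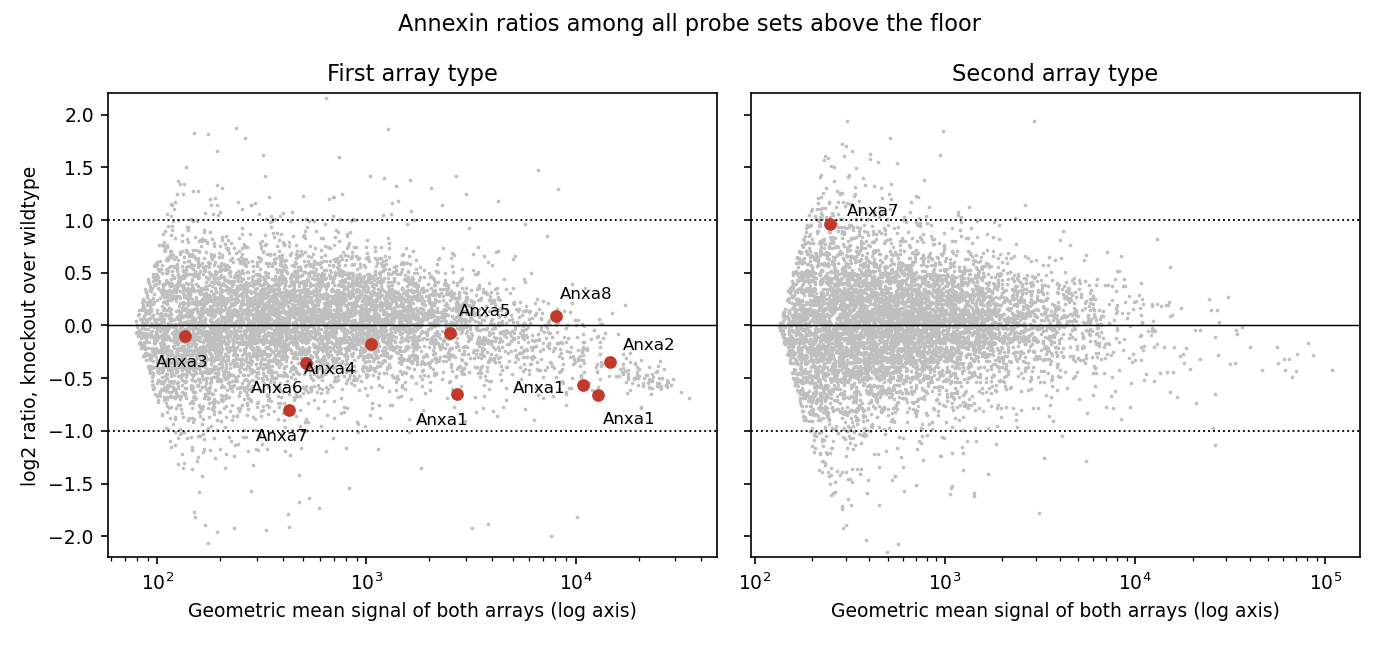
Log2 ratio of knockout over wildtype against the geometric mean signal (log axis) for probe sets above the floor in both arrays, per array type, with annexins in red and dotted lines at 2-fold. Each point is 1 probe set on 1 pair of arrays, and 8 and 5 points lie outside the vertical range. All annexins lie between the dotted lines. Anxa8 at 0.09 is the 1 annexin above 0 on the first type (9 of 10 are above 0 under spike-in scaling), and Anxa7 lies at -0.80 on the first and 0.96 on the second.

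The ratio on the first type varied with signal, which bears on the bright annexins. The signal ranges used here were chosen after the values were seen. The 143 probe sets with a mean signal of 10000 or more had a median log2 ratio of -0.44 (quartiles -0.54 and -0.30). This range holds Anxa2 at -0.35 and 2 Anxa1 probe sets at -0.56 and -0.66. The third Anxa1 probe set, at -0.65, lies among 1352 probe sets between 1000 and 3000, whose median was 0.065 with a lower quartile of -0.14. Anxa8 lies among 484 between 3000 and 10000, with a median of -0.087 and an upper quartile of 0.11. A loess fit of ratio on signal moved Anxa2 to -0.076 and the 2 bright Anxa1 probe sets to -0.34 and -0.42, left the third at -0.63 and moved Anxa8 to 0.27.

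**Figure D3:**
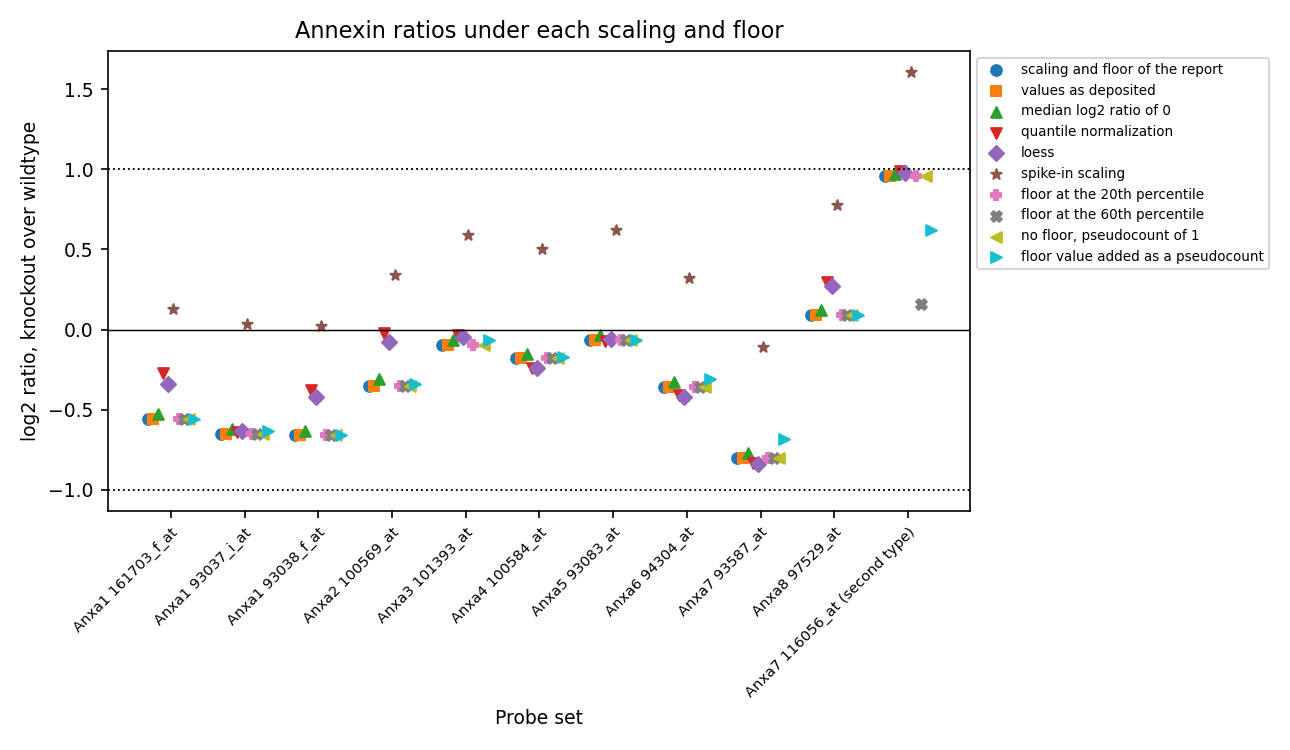
Log2 ratio of knockout over wildtype of each annexin probe set above the floor in both arrays under the scaling and floor used here and 9 alternatives, with dotted lines at 2-fold. Each symbol is 1 setting. Spike-in scaling (stars) lifts all ratios and turns those of Anxa1 to Anxa6 positive, while Anxa7 probe set 93587_at on the first type stays below 0 and Anxa8 and the second-type Anxa7 stay above 0 under every setting shown.

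Anxa7, or synexin, was described as a protein that aggregates secretory granules and binds the calcium sensor sorcin. Probe set 93587_at on the first type read 325 (knockout) and 565 (wildtype), a log2 ratio of -0.80 or 1.74-fold lower. Probe set 116056_at on the second type read 348 (knockout) and 179 (wildtype), a ratio of 0.96 or 1.94-fold higher. A further first-type probe set read 29.1 and 7.83, below the floor in both arrays, and gives no ratio here (0.32 to 1.77 under the 3 alternatives that give it one). Anxa7 was thus low on the knockout array of one type and high on that of the other. The difference between the types was 1.76 on the log2 scale, and of 1081 genes measured above the floor on both types only 8 (0.74%) differed by more. The median difference was 0.32, and 43.6% of these genes had opposite signs. A limma fit to the 4 arrays, blocked on array type, gave Anxa7 a mean log2 ratio of 0.08 (SE 0.33, limma adjusted p = 0.965, higher on 1 of 2 types), where 0.0925% of the genes passed. The adjusted p ranged from 0.13 to 1 over the alternatives. Each gene has 1 residual degree of freedom there, beside 13.9 prior ones that limma takes from all 1081 genes. The SE of Anxa7 thus rests mostly on that shared variance and less on its own difference of 1.76. That variance is a disagreement between array types, and since nothing says that the arrays are separate animals, the p measures no spread between animals.

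Genes known to work with annexins were taken from lists chosen by function. By the brightest probe set of each gene no member had a ratio past 2-fold (0.869% higher and 1.22% lower among all first-type probe sets, 1.48 and 1.84% among second-type ones). A ratio with 1 signal at the floor, such as those of Plat and Cpne6, is a lower bound and may hide a larger difference. Of 6 S100 partners, 4 lay above the floor in 1 or both first-type arrays, and the median was -0.43. Of these 4, 3 had a ratio below 0, beside 48.1% of all first-type probe sets above the floor in both arrays. S100a10, the partner of annexin A2, read 6777 (knockout) and 10284 (wildtype), a log2 ratio of -0.60, on its brighter first-type probe set and 182 and 169, a ratio of 0.11, on the other. On the second type S100a10 read 390 and 211, a ratio of 0.88, so it too gave opposite directions. Its limma mean was 0.14 (SE 0.31, limma adjusted p = 0.931, higher on 1 of 2 types), and 18 of the 1081 genes differed more between the types. S100a6, which binds annexin A11, read 1154 and 1015, a ratio of 0.18.

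Among the 10 other binding partners and receptors, 7 were measured above the floor on the first type, with a median of -0.13, and 3 on the second, with a median of -0.34. Those 3 were named after their values were seen. First-type and second-type ratios were -0.48 and -0.34 for Rasa1, -0.13 and -0.64 for sorcin (Sri), and -0.11 and 0.29 for Egfr. The limma means of Rasa1 and Sri were -0.41 and -0.38 (limma adjusted p = 0.561 and 0.596), and 0.26 and 0.28 under spike-in scaling. The AHNAK gene (Ahnak) read 12955 (knockout) and 16046 (wildtype), a log2 ratio of -0.31, close to that of Anxa2. Both lie among the 143 first-type probe sets with a mean signal of 10000 or more. Those had a median of -0.44 (quartiles -0.54 and -0.30), so the likeness is not particular to this pair. Pdcd6, the calcium sensor ALG-2 that binds annexins A7 and A11, had a ratio of -0.064 on its brighter probe set and -0.85 on a dimmer one at 77.8 and 141, near the floor. The formyl peptide receptor Fpr2 was below the floor in both arrays. Of 7 genes of the plasminogen system, 3 lay above the floor in 1 or both first-type arrays, with a median of -0.75. All 3 ratios were below 0, beside 48.1% of all first-type probe sets above the floor in both arrays. For 2 of the 3, Plat and Plau, the knockout signal was at the floor. The plasminogen activator inhibitor Serpinb2 read 6923 and 11621, a ratio of -0.75, and tissue plasminogen activator (Plat) was at least 1.95-fold lower, from 151 in wildtype to a knockout signal at the floor. Plasminogen (Plg) and the urokinase receptor Plaur were below the floor in both arrays. Under spike-in scaling first-type ratios lie 0.69 higher, which turns the negative values above for S100a10, Ahnak and the brighter Pdcd6 probe set positive but not those of Serpinb2 and the dimmer Pdcd6 probe set.

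Among annexin genes outside the 9, Anxa9, an atypical annexin of stratified epithelium, read 10417 (knockout) and 11116 (wildtype) on the second type, a log2 ratio of -0.094. Anxa10 and Anxa13 were below the floor. Of 15 copine, ferlin and protein kinase C genes, which also bind membranes with calcium, 4 were measured on the first type (median -0.17) and 5 on the second (median -0.055). Cpne1 and Cpne3 had first-type ratios of 0.61 and 0.29, and Prkcb had one of -0.63. Cpne6 was at least 1.85-fold lower, with its knockout signal at the floor. The membrane repair ferlin Dysf read 265 and 453, a ratio of -0.78, while its other probe set, named after its value was seen, was at least 3.68-fold lower. Myof, a related ferlin, had ratios of 0.26 and -0.23 on its 2 probe sets.

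**Figure D4:**
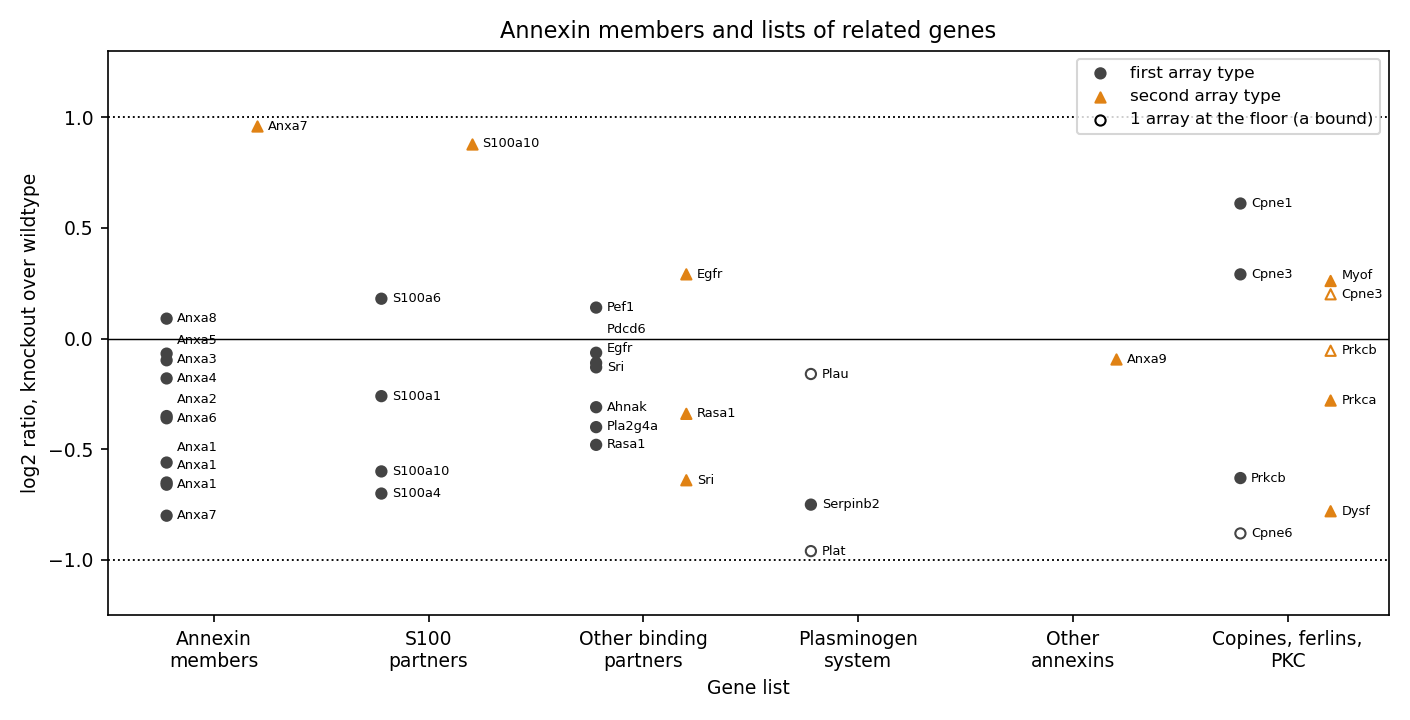
Log2 ratio of knockout over wildtype for annexin probe sets and for the genes of 5 related lists (1 brightest probe set per gene and type), circles for the first array type and triangles for the second, with dotted lines at 2-fold and open symbols for bounds with 1 array at the floor. All points lie inside the dotted lines, and Anxa7 and S100a10 appear near the top on the second type and below 0 on the first. Filled points would sit 0.69 higher on the first type and 0.65 higher on the second under spike-in scaling, where S100a10 is above 0 on both types.

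Markers of several cell types of skin differed between the genotypes on the first type, where the share of all probe sets past 2-fold was 0.869% (higher) and 1.22% (lower). For each list the signals of the brightest probe set per gene, set to the floor where lower, were summed on the knockout and then on the wildtype array, and such a sum follows its brightest probe sets. All 8 fibroblast genes lay above the floor in 1 or both arrays and 6 were at least 2-fold lower in the knockout, while the sums of 4105 and 7927 hold Dcn, which read 2462 and 2556. The probe sets of Col1a2, named after its values were seen, disagreed, with 1082 and 1076 on the brighter and 125 and 1580 on the other. Pdgfra, named likewise, is among the 6 by its brightest probe set, at 43.7 and 401 with the knockout below the floor. Another Pdgfra probe set read higher in the knockout, at 200 and 139, and a further one was below the floor in both arrays. Of 6 erythroid genes 4 were on the array and 3 were at least 2-fold lower (sums 5591 and 21748), with Slc4a1 below the floor. Of the 7 neutrophil genes 1, Camp, was at least 2-fold lower, and Ly6g, Mpo and Ngp were below the floor in both arrays (sums 574 and 788). The 6 macrophage genes had none past 2-fold and sums of 3670 and 3440. The 6 endothelial genes had none past 2-fold, a median log2 ratio of -0.0043 over the 3 above the floor in 1 or both arrays, and sums of 505 and 580, with Cdh5, Tek and Vwf below it. That median is set by the floor of 77.6, since Emcn read 31.6 and 77.8 and Kdr 79.2 and 68.3. Only Pecam1, named after its values were seen, lay above the floor in both arrays, at 115 and 192, a ratio of -0.74. The list and its sums therefore give little measure of endothelial cells. Of the 10 keratinocyte genes 1 was at least 2-fold higher (Trp63) and 1 lower (Lor, the deleted gene). Their sums were 92010 and 164945 with Lor and 89996 and 123722 without it. The sums without Lor rest mainly on Krt1, Krt10, Flg, Krtdap and Dsp, whose log2 ratios ran from -0.58 to -0.37. These 5 have mean signals of 10000 or more, and all first-type probe sets that bright had a median of -0.44. The lower sum therefore cannot be told apart from that trend with signal. The keratins Krt5, Krt14 and Krt15 were below the floor in both arrays although the tissue is skin, but a second-type probe set of Krt15 read 26582 and 22304. In both arrays 5 of 6 skeletal muscle genes and 2 of 3 adipocyte genes (Adipoq and Lpl) were below the floor, so these lists give no measure of those cells. Annexins are made by several of these cell types. In whole skin, fewer cells of a type and less RNA per cell cannot be told apart, and the part of these shifts in the annexin ratios was not tested.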

How the data were processed

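Biotin-labelled total RNA of skin was measured on Affymetrix arrays. The authors deposited 1 intensity per probe set and array. MAS5 is the tool that the submitters' processing notes name, and its version and settings are not given in the sources read here. Each of the 4 columns was matched to its sample by name.

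Both arrays of each type were scaled to the same 2% trimmed mean (deposited trimmed means 500.2 to 500.4), signals under the mean of their 40th percentiles were raised to it, and the log2 ratio was taken. Control probe sets (66 per type) were then removed. With 1 array per genotype and type there is no test, so a 2-fold rule was used. Genes on both types (brightest probe set, mean log2 signal above the floor) were compared with limma 3.58.1 in R 4.3.3 (array type as a block, Benjamini-Hochberg adjustment). Python 3.11.15 did the rest. The steps were run on simulated data. For the 2-fold rule the simulated noise was smaller than the SD of the log2 ratios here (0.42 and 0.45), so its error in these data was not measured.

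All annexin probe sets were named. From each list of partners the members past 2-fold were named, or else the 2 of highest mean signal, and other genes were named after their values were seen. Members and lists were chosen with earlier results of these data known. Alternatives varied the scaling, floor, fold rule, probe set suffix, value per gene and block. Promoter windows are RefSeq's (GRCm38.p6). In windows of minus-strand genes TATAAA most often began 29 bases before the start, so they read along the gene.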

Additional observations from a re-analysis of the deposited data

How the results depend on the processing

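The spread used to judge a value was the pooled SD of log2 ratios between probe sets of a gene, 0.41 (first array type) and 0.37 (second). Of 168 alternative values with no test, 149 moved by less than this spread or kept their count, 19 moved by more and 14 of those 19 were under spike-in scaling. Spike-in scaling took the annexin median to 0.33 (first type) and 1.61 (second type), and made 1 second-type probe set (Anxa7) at least 2-fold higher. The 60th-percentile floor, which lies just under the Anxa7 knockout signal, took that second-type value to 0.16. With no floor and a pseudocount of 1, 1 first-type probe set was at least 2-fold higher, the Anxa7 probe set that lies below the floor. At 1.5-fold, 3 first-type probe sets were lower and 1 second-type probe set higher. The limma mean of Anxa7 turned to -0.025 with the floor added as a pseudocount. With 1 array left out, the array type that keeps both genotypes gives a value with no test, from -0.80 to 0.96, so leaving out either second-type array turns its sign. With the 60th-percentile floor Anxa7 was no longer above the floor on both types and gave no limma value. Genes passing limma numbered 1 of 1081 here (110 at an unadjusted p below 0.05), 10 under loess, 591 under spike-in scaling, 6 with the 60th-percentile floor, 6 with the mean over probe sets, 1 with the values as deposited, 0 without the block (0 at an unadjusted p below 0.05) and 0 under the other alternatives (84 to 100), and Anxa7 was not among them in any that tested it. The cause was not tested. No depth applies to arrays, and the single array per genotype and type limits precision.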
